A study of Mus musculus with 4 samples.

Results

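The 39 Hox genes of the mouse were all found in the deposited expression table, by symbols made of Hox, a cluster letter from a to d and a paralogue number, among 22222 gene symbols. They comprise 11 genes of the Hoxa cluster on chromosome 6, 10 of Hoxb on chromosome 11, 9 of Hoxc on chromosome 15 and 9 of Hoxd on chromosome 2. Their transcripts were measured by RNA-seq in cells of keratoacanthomas, mouse skin tumours that can regress without treatment. All mice had received DMBA, a carcinogenic hydrocarbon, for 20 weeks. Tumours came from 2 mice still on DMBA (week 0) and from 2 other mice kept without it for 1 week. The sort took cells with both Tomato and P-cadherin, which the labels call Epi. The sources used here do not give the strain, sex or age of the mice or what drives Tomato, and all 4 libraries share the carcinogen and the gate.

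Hox genes encode homeodomain transcription factors that give cells along the body axis their positional identity. Within a cluster they lie in the order of their paralogue numbers, and low numbers are generally active further towards the head and earlier in the embryo than high numbers. In adult skin, fibroblasts and keratinocytes keep Hox programmes that depend on body site, and retinoic acid is a classical inducer of the low-numbered genes. Hox proteins bind DNA together with TALE homeodomain partners of the Pbx, Meis and Pknox families. Polycomb complexes hold silent Hox genes repressed, and trithorax complexes keep active ones transcribed.

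Levels are given as scaled CPM, the reads of a gene in proportion to a library size that the authors scaled. Each set of 4 values gives first the on-DMBA replicates 1 and 2, then the 1-week replicates 1 and 2. Recovered whole reads totalled 9678682 and 5635945 under DMBA and 5551937 and 7662159 at 1 week. Hox genes received 1756, 534, 1400 and 1008 of them, so many members rest on few reads: 8, 8, 0 and 5 of the 39 had 3 reads or fewer. A count of 3 reads corresponds to 0.356, 0.538, 0.469 and 0.428 scaled CPM, counting error only.

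The 4 libraries differed in their cell type markers. On-DMBA replicate 1 held by far the most transcripts of the 10 basal keratinocyte markers, with a summed level of 48696 against 584 in on-DMBA replicate 2 and 5504 and 3902 at 1 week. The 10 fibroblast markers summed to 226 in on-DMBA replicate 1, and to 41073, 46759 and 49206 in the other libraries. The 10 measured leukocyte and macrophage markers summed to 48.6 and 13562 under DMBA and to 5360 and 9957 at 1 week. So keratinocyte markers were present in each library labelled Epi, but their sum was far below that of the fibroblast markers in 3 of the 4. The collagens Col1a1, Col1a2 and Col3a1 made up most of the fibroblast sums there. At 1 week the median log2 levels of the keratinocyte and fibroblast lists lay closer, at 8.10 and 9.10 in replicate 1 and 7.67 and 9.17 in replicate 2. In on-DMBA replicate 2 these medians were 4.44 and 8.72. No marker of the keratinocyte, fibroblast and leukocyte lists was at 0 in any library, but some rest on very few reads. In on-DMBA replicate 1, Emr1 and Cd3e were at 0.119 scaled CPM, the level of 1 read. In bulk RNA, fewer cells of a type and less RNA per cell cannot be told apart, and the part of these cell types in the Hox values below was not tested. Because on-DMBA replicate 1 stands apart, results that rest on it are given with and without it.

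In on-DMBA replicate 1 the Hox reads came from the Hoxa, Hoxb and Hoxc clusters, and Hoxd was almost silent. Hoxd supplied 2.90% of its Hox reads (exact binomial 95% interval 2.17 to 3.80%), against 39.1% (35.0 to 43.4%) in on-DMBA replicate 2, 32.2% (29.8 to 34.7%) in 1-week replicate 1 and 38.7% (35.7 to 41.8%) in 1-week replicate 2. Hoxb showed the reverse, with 51.1% (48.8 to 53.5%) in on-DMBA replicate 1 and 28.6%, 29.8% and 30.1% in the others. Hoxa gave 28.8% in that library and 14.8%, 20.5% and 19.9% in the rest, and Hoxc gave 17.2%, 17.4%, 17.5% and 11.3%. For Hoxd the interval of on-DMBA replicate 1 was separate from those of the other libraries, the second on-DMBA library among them. In summed level Hoxd was at 6.06, 37.5, 70.5 and 55.6 scaled CPM, while the other 30 Hox genes together were at 202, 58.3, 148 and 88.1. The Hoxd sums of both 1-week libraries were above those of both on-DMBA libraries, while for the other Hox genes the 1-week sums lay between the on-DMBA sums.

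**Figure D1:**
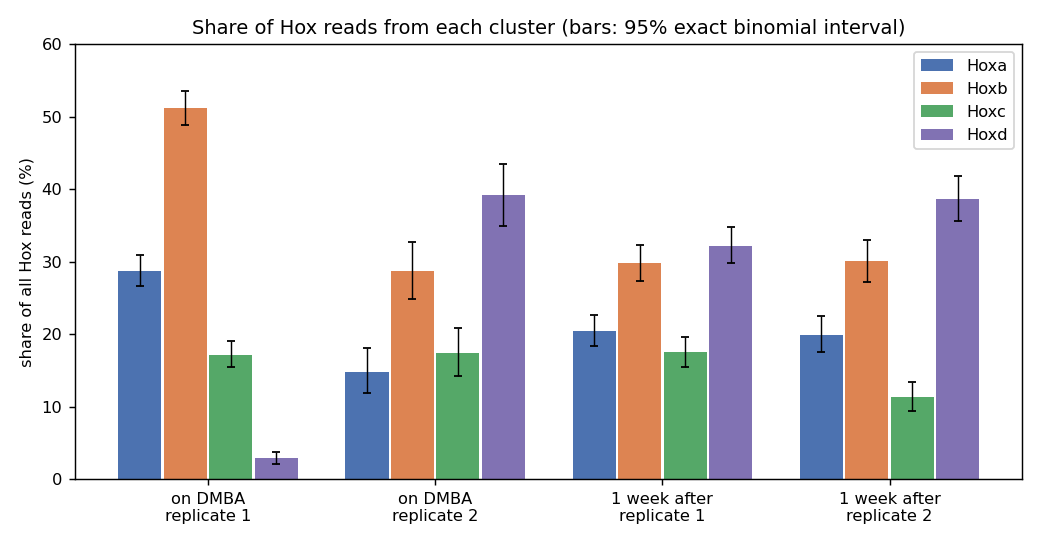
Share of all Hox reads (y axis, percent) that came from each cluster in each of the 4 libraries (x axis), with 95% exact binomial intervals for counting error. Hoxd is at 2.90% in on-DMBA replicate 1 and between 32.2% and 39.1% in the other libraries.

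**Figure D2:**
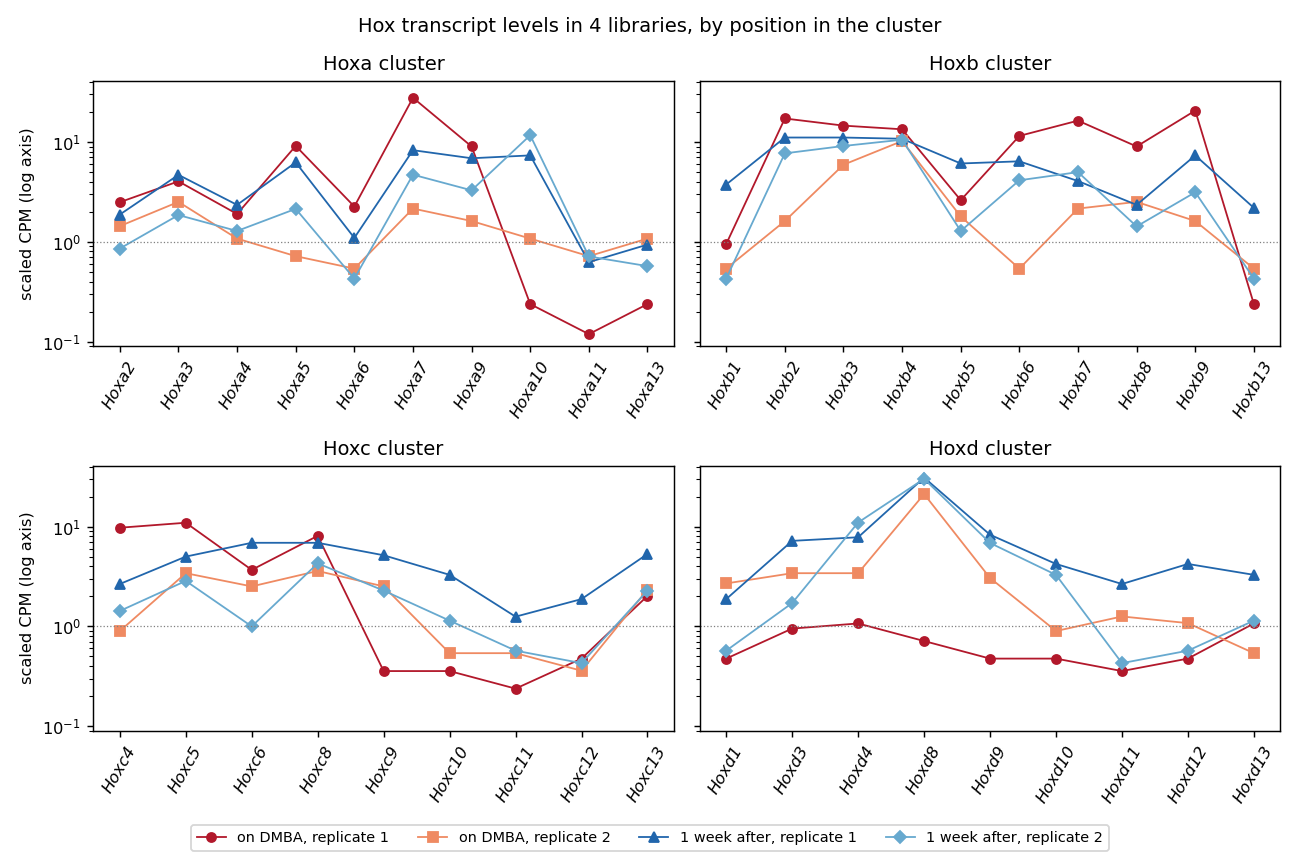
Level of the Hox genes in scaled CPM (log axis) in the order of the cluster (x axis), with 1 line per library and a dotted line at 1 scaled CPM. In on-DMBA replicate 1 the lines drop between Hoxa9 and Hoxa10 and between Hoxc8 and Hoxc9, and the Hoxd line stays between 0.356 and 1.07.

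Along the Hoxa cluster, on-DMBA replicate 1 had transcripts up to Hoxa9 and almost none beyond it. Compared per kilobase of transcript, since gene lengths differ, Hoxa9 was at 2.80 and its neighbour Hoxa10 at 0.093 scaled CPM per kilobase in that library. In 1-week replicate 2 the order was the opposite, with Hoxa9 at 1.02 and Hoxa10 at 4.56 per kilobase, and in on-DMBA replicate 2 and 1-week replicate 1 the pair lay closer, at 0.501 and 0.420 and at 2.13 and 2.86. The plot of levels by cluster position shows this as a step in the red line.

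The low-numbered Hoxa genes were weak throughout. Hoxa2, which patterns the second branchial arch, was at 2.49 and 1.44 scaled CPM under DMBA and at 1.88 and 0.856 a week later. Hoxa3, needed for the thymus and parathyroid, was at 4.04 and 2.51 against 4.69 and 1.85. In Hoxa2 and Hoxa3 the spread inside a group was as wide as the gap between the groups. Hoxa4 was equally low, at 1.90 and 1.08 against 2.34 and 1.28.

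The middle Hoxa genes were highest in on-DMBA replicate 1. Hoxa7, which is expressed in epidermal keratinocytes, was at 27.8 and 2.15 under DMBA and 8.28 and 4.71 later. It had the highest level per kilobase of the family in on-DMBA replicate 1, 13.8, from 234 reads. Hoxa5, a regulator of lung and skeletal patterning, was at 9.14 and 0.718 against 6.25 and 2.14. Hoxa6 was at 2.26 and 0.538 against 1.09 and 0.428. Hoxa9, a gene of haematopoietic progenitors and leukaemia, was at 9.02 and 1.62 against 6.88 and 3.28. For Hoxa5, Hoxa7 and Hoxa9 both 1-week values lay between the 2 values under DMBA.

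Hoxa10, a gene of the reproductive tract, limb and myeloid cells, did not follow the order of libraries seen for Hoxa9. Its level was 0.237 and 1.08 under DMBA, from 2 and 6 reads, and 7.35 and 11.7 at 1 week, from 47 and 82 reads. Both 1-week libraries were above both on-DMBA libraries. The exact Poisson 95% intervals ran from 0.0288 to 0.858 and from 0.395 to 2.34 under DMBA, and from 5.40 to 9.77 and from 9.30 to 14.5 at 1 week, without overlap between the groups. The log2 difference was 3.18 (SE 0.79, unadjusted p = 0.00894, adjusted p = 0.9997 in limma), the smallest p of the family.

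In the Hoxb cluster, levels were spread over nearly all genes from Hoxb2 to Hoxb9. Hoxb4, known for the self-renewal of blood stem cells, was the steadiest, at 13.4 and 10.2 under DMBA and 10.8 and 10.6 at 1 week. Its log2 difference of -0.13 (SE 0.60) was below the spread between replicates. Hoxb3 had a log2 difference of 0.10 (SE 0.72), but its on-DMBA values lay apart, at 14.6 and 5.92 against 11.1 and 9.13. Hoxb2, a hindbrain gene, was at 17.2 and 1.62 against 11.1 and 7.70.

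Further along, Hoxb5 was at 2.61 and 1.79 under DMBA and 6.10 and 1.28 a week later, and Hoxb6 was at 11.5 and 0.538 against 6.41 and 4.14. Hoxb7, a gene raised in several tumour types, was at 16.4 and 2.15 against 4.06 and 4.99, and Hoxb9 at 20.7 and 1.62 against 7.35 and 3.14. In Hoxb2, Hoxb3, Hoxb4, Hoxb6, Hoxb7 and Hoxb9, on-DMBA replicate 1 was the highest library and on-DMBA replicate 2 the lowest. Hoxb8, which blocks myeloid differentiation when overexpressed, was at 9.02 and 2.51 against 2.34 and 1.43, from 76, 14, 15 and 10 reads. It was the single tested member whose 1-week values were both below both on-DMBA values, by a narrow margin between 2.51 and 2.34, and under plain CPM the groups overlapped.

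The Hoxc cluster showed a step of its own in on-DMBA replicate 1, between Hoxc8 and Hoxc9. Hoxc8 was at 8.07 scaled CPM there from 68 reads and Hoxc9 at 0.356 from 3 reads, or 4.32 and 0.150 per kilobase. In the other libraries the pair was at 1.92 and 1.06, 3.68 and 2.17, and 2.29 and 0.961 per kilobase. Hoxc4 was at 9.74 and 0.897 under DMBA against 2.66 and 1.43, and Hoxc5 at 10.9 and 3.41 against 5.0 and 2.85. Hoxc6 was at 3.68 and 2.51 against 6.88 and 0.998, and Hoxc8, a thoracic patterning gene, had 3.59, 6.88 and 4.28 in the libraries after the first. Hoxc9 was at 2.51, 5.16 and 2.28 in those same 3 libraries. Hoxc10 was at 0.356 and 0.538 against 3.28 and 1.14, without overlap but from 3, 3, 21 and 8 reads. Hoxc13, which drives hair and nail keratin genes, was at 2.02 and 2.33 against 5.31 and 2.28. Per kilobase, at 0.820, 0.948, 2.16 and 0.927, Hoxc13 was the highest gene of paralogue group 13 in each of the 4 libraries. Its log2 difference, 0.59 (SE 0.76), was within the spread.

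The Hoxd cluster was opposite to Hoxb in on-DMBA replicate 1, where its summed level was lowest (6.06) and that of Hoxb highest (107). In the other libraries the sums had the same order, at 27.5, 65.2 and 43.2 for Hoxb and 37.5, 70.5 and 55.6 for Hoxd. Of the 9 Hoxd genes, 8 were lowest in on-DMBA replicate 1, and Hoxd13 was lowest in on-DMBA replicate 2. Hoxd8, a trunk patterning gene, led the cluster with 0.712 and 21.2 under DMBA and 30.9 and 30.1 at 1 week, from 6, 118, 198 and 211 reads. Per kilobase it was the highest Hox gene in on-DMBA replicate 2 (8.04), 1-week replicate 1 (11.7) and 1-week replicate 2 (11.4), and among the lower ones in on-DMBA replicate 1 (0.270). The step from on-DMBA replicate 1 to on-DMBA replicate 2 was far larger than the one from there to the 1-week libraries.

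Hoxd4, Hoxd9 and Hoxd10 had both 1-week libraries above both on-DMBA libraries, as did Hoxd8 and Hoxd13. Hoxd4, a hindbrain and cervical gene with retinoic acid response elements, was at 1.07 and 3.41 under DMBA and 7.81 and 11 at 1 week. Hoxd9 was at 0.475 and 3.05 against 8.28 and 6.85. Hoxd10, a limb and lumbar gene, was at 0.475 and 0.897 against 4.22 and 3.28, from 4, 5, 27 and 23 reads. Hoxd10 and Hoxc10 passed the level filter of the test only through the 1-week libraries, so they had to differ and count for nothing as support. Hoxd13, the digit gene, was at 1.07 and 0.538 against 3.28 and 1.14, from 9, 3, 21 and 8 reads. Its groups were separate only by a narrow margin between 1.07 and 1.14, well inside counting error. The remaining members, Hoxd1, Hoxd3, Hoxd11 and Hoxd12, had overlapping groups. Hoxd3 was at 0.95 and 3.41 against 7.19 and 1.71, Hoxd1 at 0.475 and 2.69 against 1.88 and 0.571, Hoxd11 at 0.356 and 1.26 against 2.66 and 0.428, and Hoxd12 at 0.475 and 1.08 against 4.22 and 0.571.

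The 6 members that were too low to test were Hoxa11, Hoxa13, Hoxb1, Hoxb13, Hoxc11 and Hoxc12. They ranged from 0.119 scaled CPM, 1 read of Hoxa11 in on-DMBA replicate 1, to 3.75, Hoxb1 in 1-week replicate 1. Hoxb13, a gene of the prostate and tail region, was at 0.237 and 0.538 under DMBA and 2.19 and 0.428 at 1 week. In 4 of the 6, Hoxb1, Hoxb13, Hoxc11 and Hoxc12, 1-week replicate 1 was the highest library. That library also had the most genes above 0 in the whole table, 20540, against 18293, 20064 and 19801.

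Part of the promoter sequence of 4 members is shown because they carry the contrast above: Hoxa10 has the smallest p, Hoxd4 and Hoxd8 stand for Hoxd, and Hoxa7 leads the genes that were high in on-DMBA replicate 1. Each is the 250 bases before a RefSeq transcription start in build GRCm38.p6, read 5′ to 3′ on the gene's strand. Capitals mark matches on either strand to AGGTCA (a nuclear receptor half-site, the unit of retinoic acid response elements), CTTTGA (a core of TCF/LEF sites), TGATNNAT (a Pbx-Hox site) and TATAAA (the TATA box). CTTTGA can share its last bases with TGATNNAT. The windows are chr6:52234940-52235189 (minus strand) for Hoxa10, the nearer of its 2 listed starts to Hoxa9, chr2:74721728-74721977 (plus strand) for Hoxd4, chr2:74704365-74704614 (plus strand) for Hoxd8 and chr6:52218574-52218823 (minus strand) for Hoxa7.
Hoxa10: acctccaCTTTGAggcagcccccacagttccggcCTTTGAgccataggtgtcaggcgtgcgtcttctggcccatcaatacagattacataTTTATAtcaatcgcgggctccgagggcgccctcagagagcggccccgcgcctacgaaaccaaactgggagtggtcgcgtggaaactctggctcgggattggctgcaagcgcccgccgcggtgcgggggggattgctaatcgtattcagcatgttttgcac
Hoxd4: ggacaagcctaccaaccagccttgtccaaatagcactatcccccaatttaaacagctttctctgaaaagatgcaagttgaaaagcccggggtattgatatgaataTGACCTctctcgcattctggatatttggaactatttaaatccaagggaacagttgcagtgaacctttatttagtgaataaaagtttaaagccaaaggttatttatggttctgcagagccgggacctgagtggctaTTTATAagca
Hoxd8: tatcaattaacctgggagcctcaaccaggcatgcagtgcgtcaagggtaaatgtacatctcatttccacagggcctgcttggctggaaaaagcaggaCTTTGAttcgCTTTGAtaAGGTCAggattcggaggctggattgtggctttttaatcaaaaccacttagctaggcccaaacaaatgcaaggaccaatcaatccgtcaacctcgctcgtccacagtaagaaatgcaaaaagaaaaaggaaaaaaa
Hoxa7: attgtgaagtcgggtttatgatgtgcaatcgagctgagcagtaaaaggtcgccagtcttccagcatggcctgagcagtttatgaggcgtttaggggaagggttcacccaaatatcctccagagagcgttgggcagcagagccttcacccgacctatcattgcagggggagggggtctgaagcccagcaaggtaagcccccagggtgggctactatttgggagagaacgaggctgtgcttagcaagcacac

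The RefSeq table held 24 promoter windows for 22 of the 39 Hox genes. AGGTCA was found in 6 of the 24, those of Hoxb4, Hoxc4, Hoxd3, Hoxd4, Hoxd8 and Hoxd10, that is 25% against 14.0% of all 32851 windows of this length. CTTTGA was in 3, those of Hoxa10, Hoxd8 and Hoxd12 (12.5% against 13.8%). TGATNNAT was in 4, Hoxa2, Hoxb1, Hoxb8 and Hoxd11 (16.7% against 7.68%), and TATAAA in 4, Hoxa10, Hoxb8, Hoxd4 and Hoxd13 (16.7% against 12.4%). The Hoxd8 window held 2 copies of CTTTGA and 1 of AGGTCA, the Hoxa10 window shown 2 of CTTTGA and 1 of TATAAA, and the Hoxd4 window 1 each of AGGTCA and TATAAA. The Hoxa7 window and the other Hoxa10 window held none of the 4 motifs. The Hox windows had a median GC content of 58.6%, all windows 52.4%. A match is a run of letters and not a measured binding site.

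With all 4 libraries no Hox gene passed the test between the groups, which called no gene of the whole table. The test was limma on log2(scaled CPM + 0.5) over the 15419 genes that reached 1 scaled CPM in 2 or more libraries, 33 Hox genes among them. At an adjusted p under 0.05 it called 0 of 33 Hox genes higher and 0 lower, where it called 0% and 0% of all genes. At an unadjusted p under 0.05 there were 2, Hoxa10 and Hoxd10, both higher, beside 2.48% of all genes. Of these, Hoxd10 passed the level filter only through the 1-week libraries and counts for nothing as support. On recovered reads edgeR also called 0 Hox genes, with an unadjusted p under 0.05 for 2 higher and 0 lower, beside 1.49% and 0.272% of all genes. DESeq2 called 0 as well, beside 0.104% of all genes higher and 0.0195% lower, and its unadjusted p was under 0.05 for 3 higher Hox genes and 0 lower, beside 2.5% and 1.15% of all genes.

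Of the 33 tested members, 7 had groups that did not overlap and were higher at 1 week (Hoxa10, Hoxc10, Hoxd4, Hoxd8, Hoxd9, Hoxd10 and Hoxd13), where 14.0% of all genes did. In the other direction there was 1, Hoxb8, where 9.14% of all genes did. With 2 libraries in each group, the smallest two-sided p of an exact permutation test is 0.333. Of the 7 higher members, 5 were Hoxd genes and 5 had a paralogue number of 9 or more, but Hoxc10 and Hoxd10 owe their place to the filter. Hoxd13 owes its place to a narrow margin, 1.07 in on-DMBA replicate 1 against 1.14 scaled CPM in 1-week replicate 2.

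The median log2 difference, 1 week minus on DMBA, was 0.27 for the 33 members and -0.02 for all genes tested. By cluster it was 0.21 for the 9 tested Hoxa genes, -0.01 for 8 Hoxb, 0.00 for 7 Hoxc and 0.96 for 9 Hoxd genes. The Hoxd median was 0.36 without 1-week replicate 1, 1.75 without 1-week replicate 2, and 0.52 and 1.51 without on-DMBA replicate 1 or 2. By position it was 0.10 for paralogues 1 to 4, -0.09 for 5 to 8 and 0.96 for 9 to 13, with 11 tested members in each. The Hoxd and 9 to 13 groups share Hoxd9 to Hoxd13, and both medians are the value of Hoxd13, so they are not separate results. Both include Hoxd10, and the 9 to 13 group also Hoxc10, which passed the filter only through the 1-week libraries. After Hoxa10, the smallest unadjusted p values among higher members came from Hoxd10 at 1.86 (SE 0.72), Hoxd4 at 1.98 (SE 0.79) and Hoxd9 at 2.11 (SE 0.89). Hoxd10 had to differ because of the filter. For Hoxd10, Hoxd4 and Hoxd9 limma gave an unadjusted p of 0.0467, 0.0521 and 0.0617, with an adjusted p of 0.9997. Hoxd8 was at 2.60 with a large error (SE 1.41). Among lower members limma gave them to Hoxb8 at -1.19 (SE 0.87, unadjusted p = 0.225), Hoxc5 at -0.64 (SE 0.84), Hoxa6 at -0.48 (SE 0.86) and Hoxa2 at -0.42 (SE 0.76). The adjusted p was 0.9997 for each of these 8 limma differences.

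**Figure D3:**
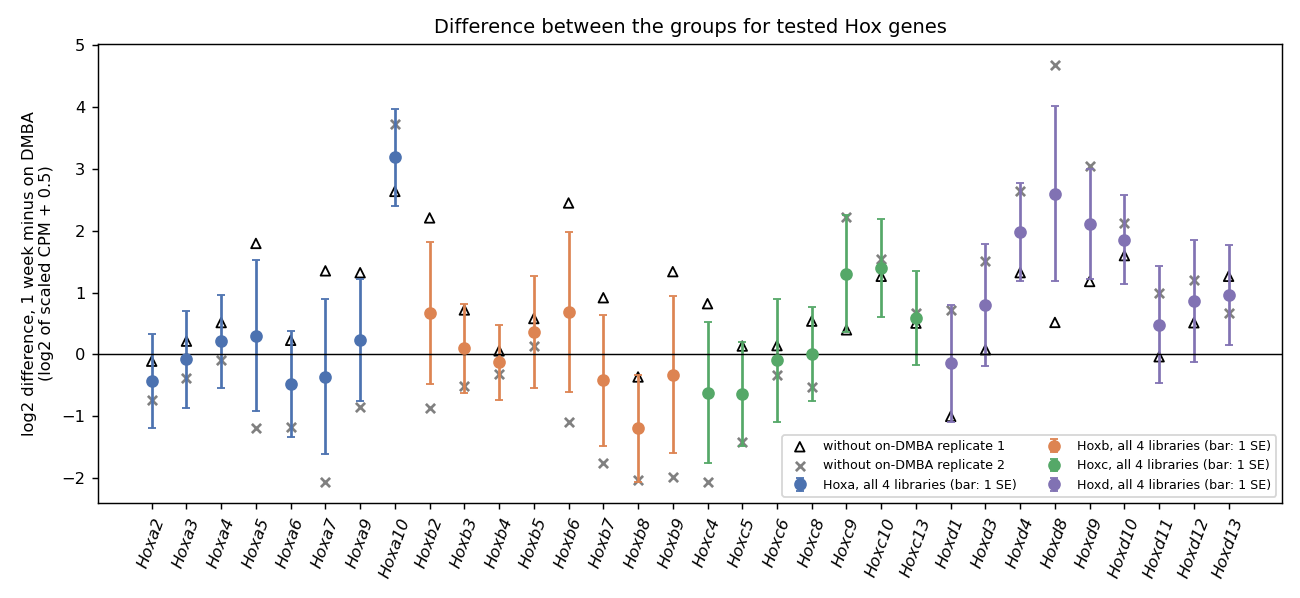
Log2 difference between the groups (y axis, 1 week minus on DMBA) for tested Hox genes (x axis). Filled points with bars of 1 SE use all 4 libraries, and open triangles and crosses leave out on-DMBA replicate 1 or 2: for Hoxa10 the values are 3.18, 2.63 and 3.73, while for Hoxa7 they are -0.36, 1.35 and -2.06.

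Which members were called depended on which on-DMBA library was kept. Without on-DMBA replicate 1, limma called 2 of 33 Hox genes higher, Hoxa10 and Hoxb2, and 0 lower, beside 2.35% and 0.999% of all genes. The unadjusted p was under 0.05 for 4 higher Hox genes and 0 lower, beside 5.73% and 3.02% of all genes. Hoxa10 was then at 2.63 (SE 0.71, adjusted p = 0.00894) and Hoxb2 at 2.21 (SE 0.68, adjusted p = 0.0374). Without on-DMBA replicate 2, limma called 4 higher, Hoxa10, Hoxd4, Hoxd8 and Hoxd9, and 4 lower, Hoxa7, Hoxb7, Hoxb9 and Hoxc4, beside 14.3% and 10% of all genes. The unadjusted p was under 0.05 for 6 higher and 6 lower Hox genes, beside 17.8% and 16.2% of all genes. Hoxd8 was then at 4.68 (SE 0.58) and Hoxa7 at -2.06 (SE 0.57, adjusted p = 0.00212). In both fits the lone on-DMBA library is assumed to vary like the 1-week libraries, and both share the 1-week libraries. Fits without a 1-week replicate take their error from the 2 on-DMBA libraries alone, and they called no gene of the whole table. Their lack of Hox calls therefore says nothing about the 1-week replicates. Without 1-week replicate 1 the unadjusted p was under 0.05 for 1 higher Hox gene and 0 lower, beside 0.363% and 0.00649% of all genes. Without 1-week replicate 2 it was so for 0 higher and 0 lower, beside 0.227% and 0.013%. The log2 difference was above 0 for 21 of the 33 Hox genes with all libraries, beside 48.7% of all genes. It was above 0 for 29 and 14 of them without on-DMBA replicate 1 or 2 (53.2% and 48.3% of all genes), and for 11 and 26 without 1-week replicate 1 or 2 (52.3% and 47.3%).

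Hoxa10 was the 1 member called in both of these fits. Hoxb2 was at 2.21 in the former and -0.86 in the latter, opposite in sign, and so were Hoxa7 (1.35 and -2.06), Hoxb7 (0.92 and -1.75), Hoxb9 (1.34 and -1.99) and Hoxc4 (0.82 and -2.05). Hoxd4 (1.32 and 2.64), Hoxd9 (1.18 and 3.04) and Hoxd8 (0.52 and 4.68) kept their sign. The median of the 24 tested members outside Hoxd was 0.65 and -0.63 in these fits.

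Endothelial and mural cell markers also separated the groups, in the same direction as Hoxa10. The 6 endothelial markers, such as Pecam1, summed to 5.11 and 155 under DMBA and to 491 and 997 at 1 week, and 6 of 6 were higher without overlap, where 14.0% of all genes were. The 6 pericyte and smooth muscle markers summed to 105 and 230 against 776 and 1429, likewise with 6 of 6 higher without overlap. Of the 10 fibroblast markers 6 were, against the same 14.0%, while Col1a1, Dcn, Lum and Thy1 overlapped. For Dcn, Lum and Thy1 on-DMBA replicate 2 was above both 1-week libraries, Dcn for example at 6.06 and 898 against 559 and 743. No endothelial or mural marker was at 0 in any library, and the part of these cells in the Hoxa10 and Hoxd values was not tested. The 13 hair follicle epithelium markers summed to 2380 and 41.5 against 204 and 413, mostly from Krt17, at 2265 and 16.5 against 157 and 395. Of the 10 tested, 6 were lowest in 1-week replicate 2, where Krt71, Krt25 and Krt85 were at 0. The 4 Schwann cell markers summed to 34.9 and 106 against 39.9 and 44.5, with none at 0 but Sox10 at 0.24 in on-DMBA replicate 1.

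**Figure D4:**
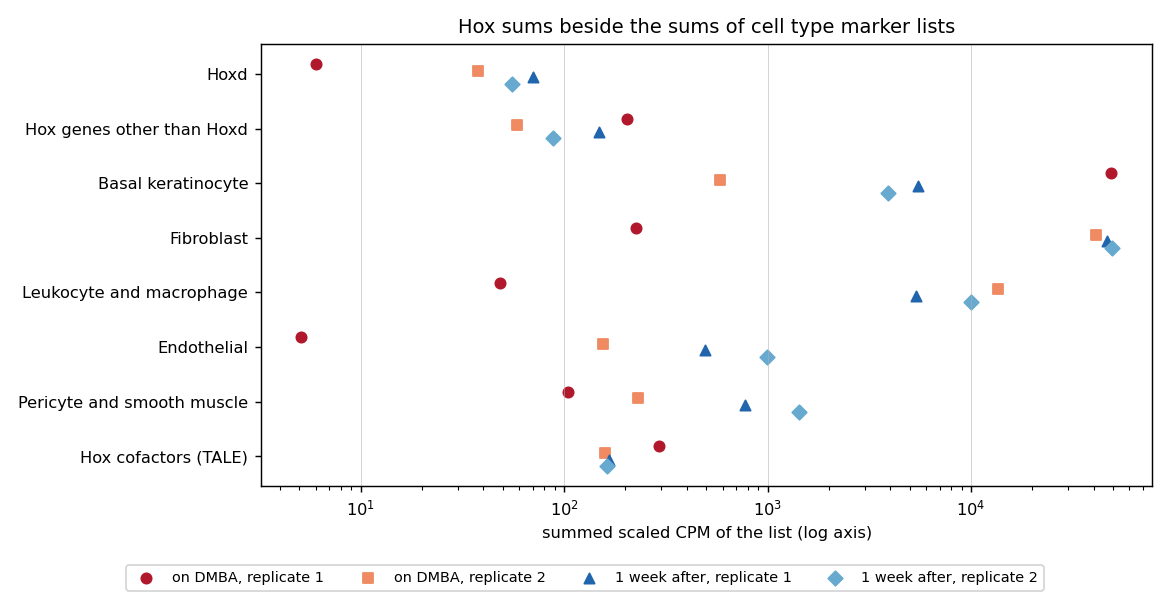
Summed scaled CPM (x axis, log) of the Hoxd genes, the other 30 Hox genes, 5 lists of cell type markers and the Hox cofactors in the 4 libraries. Hoxd and the fibroblast markers are lowest in on-DMBA replicate 1, at 6.06 and 226, and the other Hox genes and the basal keratinocyte markers are highest there, at 202 and 48696.

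Single libraries stood out across the family. On-DMBA replicate 1 was the highest library for 15 of the 33 tested members, and 1-week replicate 1 for another 15. Over the 7165 tested genes in the same range of mean level, 1.08 to 20.7 scaled CPM, these libraries were highest for 32.6% and 33.1%. On-DMBA replicate 2 was the highest for 1 member, Hoxd1, against 18.6% of those genes, and the lowest for 13, against 21.8%. On-DMBA replicate 1 was the lowest for 12, against 44.9%, and 1-week replicate 2 for 8, against 16.8%. The 1-week replicate 1 was lowest for 0 of the 33, against 16.5%. The 2 libraries at 1 week thus differed as well: in all Hox genes they summed to 219 and 144 scaled CPM, and 37 and 27 members reached 1 scaled CPM.

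Of the partner genes of Hox, 9 TALE genes were measured and 8 tested, and limma called 0 of them, with 0 at an unadjusted p under 0.05. Pbx3 was even, at 5.70 and 7.72 under DMBA and 5.78 and 8.56 at 1 week. Meis1 was at 26.5 and 6.10 against 20.2 and 18.7, and Meis2 at 14.1 and 7.54 against 10 and 7.13. Meis1 and Meis2 were thus highest in on-DMBA replicate 1. Of the 8 tested TALE genes, 3 were highest and 4 lowest in that library, beside 41.7% and 37.5% of all genes tested. Meis3, named after its values were seen, followed the profile of Hoxd8, at 0.237 and 12 against 15.8 and 14.4. The median log2 difference of the list was 0.10.

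The chromatin regulators of Hox clusters did not pass either. The 18 Polycomb genes had a median log2 difference of -0.20, with 4 lower and 0 higher without overlap, beside 9.14% and 14.0% of all genes. Their most abundant member Jarid2, a subunit of Polycomb repressive complex 2, was at 204 and 63.2 under DMBA against 71.6 and 63.0. The 9 measured trithorax-related genes had a median of -0.41, with 1 lower and 0 higher without overlap, beside the same 9.14% and 14.0%. The most abundant, Ash2l, a core subunit of the MLL histone methyltransferase complexes, was at 148 and 61.7 against 62.1 and 83.2. In both lists limma called 0 genes, with 0 at an unadjusted p under 0.05. Ezh2, the Polycomb methyltransferase, also named after its values were seen, was at 48.8 and 14.2 against 7.35 and 15.3.

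Of 20 tested members of the list of other positional factors, 6 were higher and 0 lower without overlap, beside 14.0% and 9.14% of all genes. Of these 20, 0 passed in limma and 1, Tbx3, which falls outside the naming rule, had an unadjusted p under 0.05. The most abundant member, Prrx1, a limb and craniofacial mesenchyme factor, was at 0.831 and 103 under DMBA against 229 and 227, the same order of the 4 libraries as for Hoxd8. The 9 tested of 12 measured upstream and ParaHox genes had a median of 0.74 and 0 calls (0 at an unadjusted p under 0.05 in limma). Of the 9, 7 were highest in 1-week replicate 1 and 7 lowest in on-DMBA replicate 1. Among genes in the level range of the tested Hox members these shares were 33.1% and 44.9%. Most noncoding RNAs listed for the Hox clusters, Hotair and Hottip among them, were absent from the deposited table under the symbols used, so their level is unknown. The 7 measured were low: 1 was tested, and their summed level was 2.26 and 1.79 against 5.78 and 2.71 scaled CPM. Mir196b was at 0 in all 4 libraries and Mir196a-1 had 0.119 scaled CPM in on-DMBA replicate 1 and 0 elsewhere.

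Some Hox genes share exons with other annotated genes. In GENCODE M21, exons of Hoxa3, Hoxa4, Hoxa7, Hoxa11, Hoxb2, Hoxb3 and Hoxd3 overlap a gene on the opposite strand, and those of Hoxa2, Hoxa3, Hoxd3, Hoxd4, Hoxd10 and Hoxd11 overlap a longer transcript unit on the same strand. The kit kept strand, but the strand setting used in counting is not given in the sources used here, so reads of these members may be shared with or lost to the overlapping gene. Hoxa10 and Hoxd8 had no such overlap.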

How the data were processed

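Per the labels' protocols, total RNA of the sorted cells was depleted of ribosomal RNA and made into libraries that mark strand with dUTP. Build mm9 and the tools HTSeq, TopHat2 2.1, edgeR 3.2.3 and CASAVA 1.8.2 appear in the submitters' processing notes, with no role or order. The authors deposited 1 table of a normalised signal, a CPM against a scaled library size, so the 4 columns sum to different totals. All values (100%) were whole multiples of 1 step per library within 0.01 reads, which gave back whole reads. Libraries come from 4 mice by their identifiers. The reference annotation is of another build than mm9, so it served only for names, transcript lengths (longest coding transcript paired with RefSeq), overlaps and promoter sequences.

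The members and the 13 gene lists were chosen with earlier results of these data known. The fit over all genes used R 4.3.3 with limma 3.58.1 (eBayes with trend, two-sided, Benjamini-Hochberg, threshold 0.05). It was tested on simulated counts. Hox members are reported with their values in each library, those too low to test by range. Some genes that these rules name are not reported here, but counts, sums and medians include them. Statistics are printed for the 4 smallest p values in each direction, plus members called when an on-DMBA library was left out, which were chosen after their values were seen. Pbx3, Meis1 and Meis2 were named by rule, and of other lists the most abundant member. Alternatives were a pseudocount of 0.1 or 1, filtering at 5 scaled CPM or not at all, median ratio scaling, plain CPM, no trend, a replicate block, leaving out each library, edgeR 4.0.16 and DESeq2 1.42.0 on the reads, and shares per kilobase, added after seeing the data. Intervals cover counting error only.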

Additional observations from a re-analysis of the deposited data

How the results depend on the processing

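The numbers in the sample titles mark different mice, and the deviations of same-numbered libraries correlated at 0.015 over genes, so they pair nothing. With the replicate number as a replicate block, 0 Hox genes passed in either direction, beside 285 higher and 3 lower genes of all. DESeq2 called 16 higher and 3 lower of all. When each library was left out in turn, the Hox genes called numbered 0 to 4 higher and 0 to 4 lower, all genes 0 to 2212 and 0 to 1549, and Hox genes without overlap 7 to 19 higher and 1 to 15 lower.

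The median log2 difference ranged over these fits from -0.32 to 0.97 for all tested Hox genes, -0.74 to 0.71 for Hoxa, -0.97 to 0.82 for Hoxb, 0.36 to 1.75 for Hoxd, -0.33 to 1.06 for Hoxc, -0.32 to 0.51 for paralogues 1 to 4, -1.18 to 0.54 for paralogues 5 to 8 and 0.36 to 1.82 for 9 to 13. The Hoxd and 9 to 13 medians share members and include Hoxd10, and the latter Hoxc10, which passed the main filter only through the 1-week libraries. The median became 0.59 for Hoxc without a filter and 2.11 for Hoxd with a filter of 5 scaled CPM. That filter left 4 higher and 0 lower members without overlap, and plain CPM left 0 lower. Of the 4, Hoxa10, Hoxd4 and Hoxd9 reached 5 scaled CPM only in the 1-week libraries. Under that filter they had to differ and count for nothing as support, and the Hoxd median of 2.11 includes Hoxd4 and Hoxd9. Plain CPM moved the median of all genes from -0.02 to 0.11. Per kilobase, Hoxb took 33.2% in 1-week replicate 2, and Hoxd 29.0% and 35.0% in 1-week replicates 1 and 2. The other 13 shares stayed within their intervals.

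Sign was followed, with each library left out, in members with the smallest p values and members called without an on-DMBA library. Those that changed sign ranged from -1.41 to 0.14 (Hoxc5), -1.18 to 0.23 (Hoxa6), -2.06 to 1.35 (Hoxa7) and -0.86 to 2.21 (Hoxb2). Hoxb7, Hoxb9 and Hoxc4 also changed sign, ranging from -1.75 to 0.92, -1.99 to 1.34 and -2.05 to 0.82. Of the chosen members, Hoxa10, Hoxd4, Hoxd8, Hoxd9, Hoxd10, Hoxb8 and Hoxa2 kept their sign in every alternative that gave a value. For Hoxd10, as for Hoxc10, the level filter fixed the sign whichever library was left out, so it counts for nothing as support. Outside the chosen members, only Hoxc9, Hoxc10, Hoxc13 and Hoxd13 kept their sign whichever library was left out. The other tested members changed sign, such as Hoxb6 (2.45 and -1.09) and Hoxa5 (1.79 and -1.19) without on-DMBA replicate 1 or 2. The cause of these changes was not tested. Few reads per member limit the lower Hox values.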
